A study of Mus musculus with 22 samples.

Results

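Cerebellar granule cell genes are represented here by 10 genes, Gabra6, Cbln1, Cbln3, Zic1, Zic2, Neurod1, Pax6, Barhl1, Etv1 and Fat2, of the 34584 genes listed in the count tables of a multiple reporter protein tolerant mouse strain. The genes were chosen by name for their known place in granule cells, but with earlier results of these data known. Their rows were read by Ensembl identifier in every library. RNA sequencing covered 22 libraries of C57BL/6 mice. The thymus and the cerebrum each gave 8 libraries (4 per genotype), and the cerebellum gave 6, of which 2 were Tol. Tol mice are heterozygous for an open reading frame of scrambled reporter and modifier protein fragments, placed 3′ of Col1a1 in embryonic stem cells under the broadly active CAG promoter, and WT mice are littermates without it. The study's methods give an age range in weeks for its experiments as a whole, and the age of each sequenced animal and whether the libraries of an organ came from separate dissections are not given in the sources used here, so p-values measure the spread between these libraries. The transgene row held 448 to 4628 counts in the Tol libraries and 0 to 2 counts in the WT libraries, so each library matched its labelled genotype. Library totals were 14543698 to 34776973 counts, and 23340005 to 27057348 in the cerebella. Levels are given as CPM, the read counts scaled to a common library size with TMM factors over all libraries, and 3 counts, taken as the limit of detection, were worth 0.0745 to 0.234 CPM. The library labelled cerebellum Tol 2 stood apart from the other 5 cerebella in these genes, and the comparison of Tol with WT cerebellum is given with and without it. Cerebellum WT 2, cerebrum Tol 2 and cerebrum WT 4 also stood apart, as described with their values.

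Granule cells are the small glutamatergic neurons that fill the inner layer of the cerebellar cortex and make up most of its cells. They arise from progenitors of the rhombic lip under Atoh1, pass through a stage in which Zic, Pax6, Neurod1 and Barhl1 are active, and then send parallel fibres to the dendrites of Purkinje cells. In the mature cell, inhibition through receptors with the alpha6 subunit and the secretion of cerebellins at the parallel fibre synapse are the best known traits. In whole tissue, fewer granule cells and less RNA of a gene per cell cannot be told apart.

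The members are spread over 6 chromosomes of GRCm38 (GENCODE vM21). Gabra6 (ENSMUSG00000020428, chr11:42306437-42321072, minus strand) and Fat2 (ENSMUSG00000055333, chr11:55250609-55336564, minus strand) share chromosome 11. Cbln3 (ENSMUSG00000040380, chr14:55878913-55884392, minus strand) and Zic2 (ENSMUSG00000061524, chr14:122475435-122479852, plus strand) lie on chromosome 14, and Cbln1 (ENSMUSG00000031654, chr8:87468405-87472609, minus strand) on chromosome 8. On chromosome 2 lie Neurod1 (ENSMUSG00000034701, chr2:79452521-79456751, minus strand), Pax6 (ENSMUSG00000027168, chr2:105668900-105697364, plus strand) and Barhl1 (ENSMUSG00000026805, chr2:28907679-28916668, minus strand). Zic1 (ENSMUSG00000032368, chr9:91358058-91365810, minus strand) and Etv1 (ENSMUSG00000004151, chr12:38779380-38870484, plus strand) complete the set. Exons of Zic1 overlap those of Zic4 on the other strand. Exons of Neurod1 overlap those of Cerkl on the same strand and those of Gm26755 on the other. Whether the counting used strand is not stated in the sources used here, so the values of Zic1 carry that uncertainty. Strand alone cannot separate Neurod1 from Cerkl, so the values of Neurod1 are uncertain in either case.

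RefSeq promoter sequences (GRCm38.p6) were at hand for 8 of the 10 genes, all except Cbln1 and Zic2. The 250 bases before the start were searched on both strands for CAGATG (read as CATCTG on the other strand), an E-box bound by proneural factors such as Atoh1 and Neurod1, for the palindromic E-box CAGCTG, and for CAGCAGG (the other strand reads CCTGCTG), a core bound by Zic proteins. The first was found in 14.5% of 32817 promoters of the same length and in 1 of the 8 genes, Etv1. The second was found in 13.0% of all promoters and in 1 of the 8, Barhl1, and the third in 8.45% of all promoters and in 0 of the 8. The 3 sequences below are those of Gabra6, the member furthest below the other cerebella in Tol 2 and without any of these motifs, and of the genes that hold one, 5′ to 3′ on the strand of the gene, with the motif in capitals.
Gabra6, chr11:42321073-42321322, minus strand: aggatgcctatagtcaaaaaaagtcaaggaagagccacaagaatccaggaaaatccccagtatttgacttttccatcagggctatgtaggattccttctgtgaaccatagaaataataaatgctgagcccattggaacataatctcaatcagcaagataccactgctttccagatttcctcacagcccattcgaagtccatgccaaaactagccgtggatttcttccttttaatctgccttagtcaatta
Barhl1, chr2:28916669-28916918, minus strand: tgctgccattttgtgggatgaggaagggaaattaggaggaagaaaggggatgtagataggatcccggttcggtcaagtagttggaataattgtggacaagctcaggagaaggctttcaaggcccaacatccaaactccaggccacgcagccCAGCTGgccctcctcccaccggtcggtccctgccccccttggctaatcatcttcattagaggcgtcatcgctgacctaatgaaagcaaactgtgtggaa
Etv1, second promoter, chr12:38783461-38783710, plus strand: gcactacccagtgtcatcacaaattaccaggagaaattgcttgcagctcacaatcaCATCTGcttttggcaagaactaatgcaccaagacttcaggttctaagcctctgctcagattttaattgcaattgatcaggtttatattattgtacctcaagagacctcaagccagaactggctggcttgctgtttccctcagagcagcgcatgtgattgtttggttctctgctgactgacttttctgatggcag
CAGCTG starts 99 bases before the start of Barhl1 and CATCTG 194 bases before this start of Etv1. The other promoter of Etv1 held no match, and the second promoter of Barhl1 held CAGCTG 15 bases before its start.

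Levels in WT cerebellum were compared between genes per kb of the principal transcript, which corrects for length in part, as 1 length was used per gene. For Etv1 that length was 6576 bases where all its exons span 13296, and for Pax6 2869 where they span 11694. The orders and overlaps per kb given here and for the other organs hold for that choice, and other lengths were not tested. Cbln3 was highest with 269.6 ± 84.9 CPM per kb (SD, n = 4), followed by Gabra6 with 250.9 ± 81.4 and Cbln1 with 216.3 ± 59.4. Zic1 (145.4 ± 39.7), Neurod1 (122.1 ± 38.2), Etv1 (83.2 ± 24.0), Zic2 (68.5 ± 19.7) and Fat2 (60.4 ± 21.7) held the middle. Pax6 followed with 28.8 ± 7.35, and Barhl1 was lowest with 4.31 ± 1.20 CPM per kb. The ranges of neighbours in this order overlapped except for Pax6 and Barhl1. Within a library the order was nonetheless the same in 4 of 4 WT cerebella for each pair of neighbours but Zic2 and Fat2, where it held in 3 of 4.

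The other organs ranked the genes differently. In WT cerebrum the order per kb was led by Etv1 with 20.3 ± 7.20 CPM per kb (SD, n = 4), above Neurod1 with 4.78 ± 1.91 in 4 of 4 libraries. Gabra6 (0.566 ± 1.07), Fat2 (0.156 ± 0.249) and Barhl1 (0.0204 ± 0.0409) came last there. In WT thymus, Fat2 (0.791 ± 0.148) and Etv1 (0.701 ± 0.0576) led, with overlapping ranges.

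**Figure D1:**
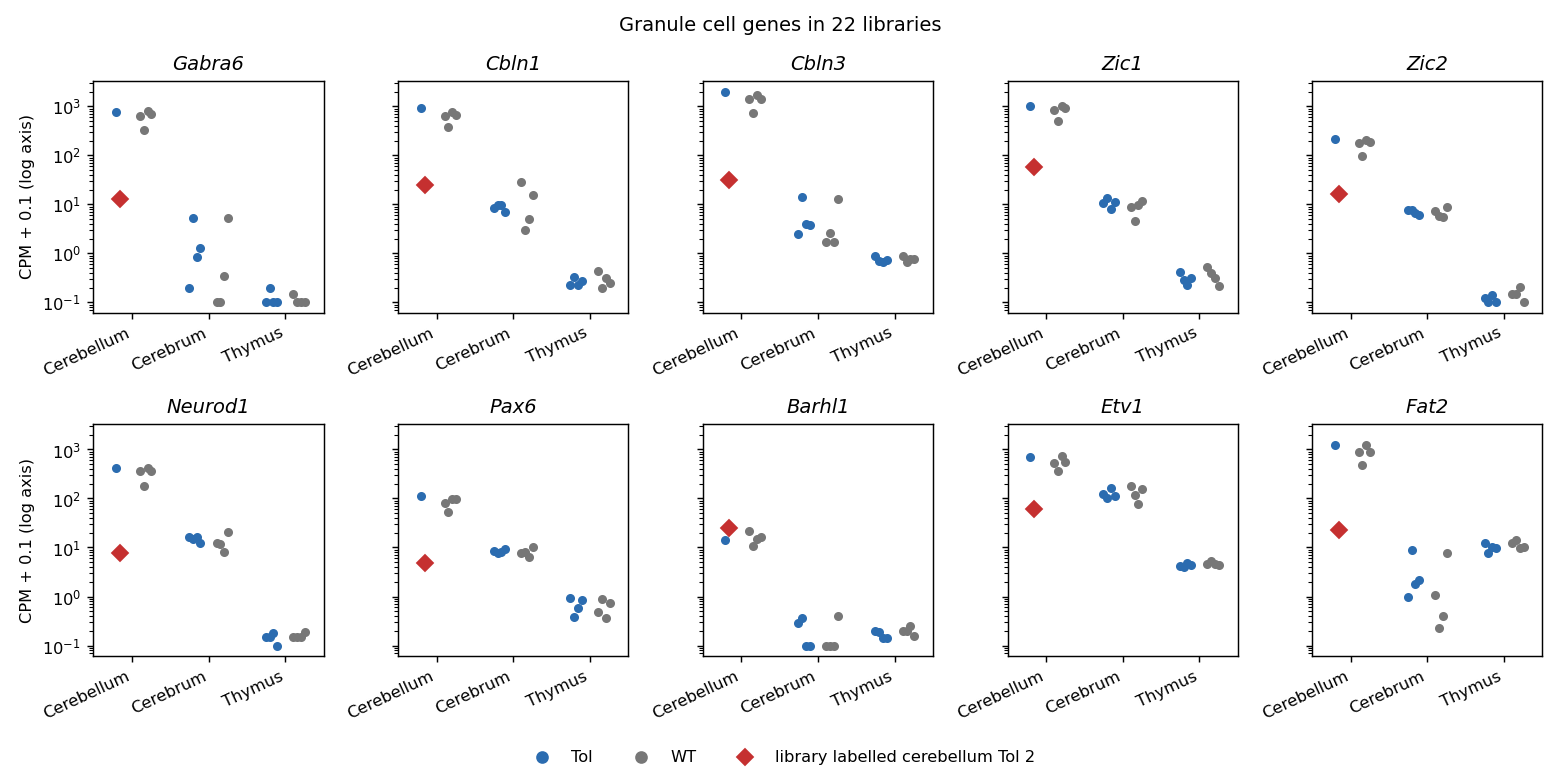
CPM plus 0.1 on a log axis for each of the 10 genes in the 22 libraries, with 1 point per library (Tol blue, WT grey, the library labelled cerebellum Tol 2 as a red diamond). Every gene but Barhl1 has its red diamond below the other cerebella, and the thymus points of Fat2 lie above most of its cerebrum points.

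To ask how far the 10 genes mark the cerebellum in these data, WT cerebellum was compared with WT cerebrum. All 10 genes were higher in cerebellum with an adjusted p under 0.05 (edgeR quasi-likelihood test), where 25.6% of the 15877 genes tested were higher and 49.8% were called in either direction. The median log2 fold change was 6.06 over the 10 genes and 0.04 over all genes tested. The levels of the 2 groups did not overlap for any of the 10, against 47.4% of all genes.

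The GABA-A receptor subunit gene Gabra6 was at 634, 332, 798 and 681 CPM in WT cerebella 1 to 4 and at 0, 0, 0.240 and 5.27 CPM in WT cerebra 1 to 4. The lowest cerebellum stood far above the highest cerebrum, and the log2 fold change was 8.78 (SE 1.12, edgeR adjusted p = 0.000310). The value leaned on cerebrum WT 4, which held 88 reads of the gene against 0 to 4 in the other 3, and without that library it was 12.80. Cbln3, which joins Cbln1 in the secreted cerebellin complex, was at 1389, 727, 1699 and 1432 CPM in cerebellum and at 1.57, 2.44, 1.62 and 12.5 CPM in cerebrum. Again cerebrum WT 4 was the highest of its group, and the log2 fold change was 8.17 (SE 0.81, edgeR adjusted p = 8.33e-05) with it and 9.44 without it. Cbln1, the secreted cerebellin that organises parallel fibre synapses, was at 618, 378, 777 and 649 CPM in cerebellum and at 27.8, 2.89, 4.86 and 15.1 CPM in cerebrum. Its log2 fold change was 5.56 (SE 0.70, edgeR adjusted p = 0.000293), with cerebrum WT 1 as the highest cerebrum.

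Of the transcription factors, Zic1, a zinc finger factor, was at 496 to 999 CPM in WT cerebellum and 4.57 to 11.7 CPM in WT cerebrum, a log2 fold change of 6.56 (SE 0.36, edgeR adjusted p = 7.99e-06). Its relative Zic2 was at 97.8 to 207 CPM and 5.34 to 8.57 CPM, a log2 fold change of 4.62. Neurod1, a basic helix-loop-helix factor of neuronal differentiation, was at 183 to 425 CPM in cerebellum and 8.05 to 20.4 CPM in cerebrum, a log2 fold change of 4.66. The paired-box factor Pax6 (53.3 to 99.6 CPM against 6.36 to 10.2 CPM) and the ETS factor Etv1 (357 to 742 CPM against 75.3 to 183 CPM) had the smallest log2 fold changes, 3.34 (SE 0.23) and 2.02 (SE 0.30, edgeR adjusted p = 0.000728). Both are thus readily measured in cerebrum too. Barhl1, a homeobox factor also known from the midbrain and the inner ear, was at 21.5, 10.8, 14.8 and 16.1 CPM in cerebellum and at 0 counts in 3 of 4 WT cerebra, with 5 counts in cerebrum WT 4. Its log2 fold change of 7.61 (SE 0.64, edgeR adjusted p = 3.82e-05) rests on few reads. Without cerebrum WT 4 it became 11.36, but with 0 counts left in cerebrum the size of that value is not a measured ratio. Fat2, a giant atypical cadherin of parallel fibres, was at 883, 488, 1261 and 881 CPM in cerebellum and at 0.976, 0.129, 0.300 and 7.67 CPM in cerebrum. The log2 fold change of Fat2 was 8.58 (SE 1.03, edgeR adjusted p = 0.000231), and 10.78 without cerebrum WT 4.

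**Figure D2:**
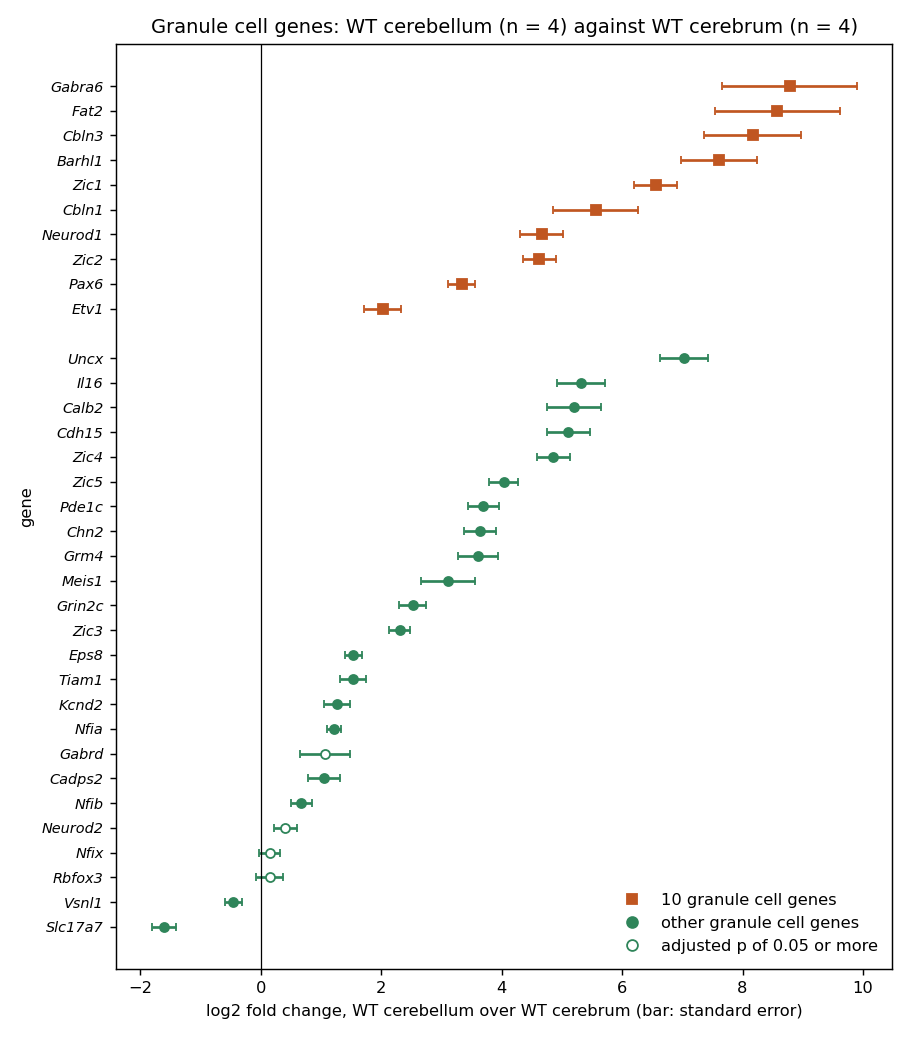
Log2 fold change of WT cerebellum (n = 4) over WT cerebrum (n = 4) with its standard error, for the 10 genes (squares) and 24 other granule cell genes (circles, open where the adjusted p is 0.05 or more). All squares lie between 2.02 and 8.78, while the circles reach from below 0 to 7.03.

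A list of 24 other genes used in granule cells was less uniform. Of these, 18 were higher in WT cerebellum, 2 were lower and 4 did not pass, with a median log2 fold change of 1.92. The largest support was for the homeobox gene Uncx (7.03, edgeR adjusted p = 9.07e-06), Zic4 (4.86, adjusted p = 9.50e-06), Zic5 (4.04, adjusted p = 1.06e-05) and the phosphodiesterase Pde1c (3.70, adjusted p = 1.82e-05). The 2 lower genes were the vesicular glutamate transporter Slc17a7 and the calcium sensor Vsnl1, both also abundant in forebrain neurons, and they were named after their values were seen. Of the 10 Purkinje cell genes 8 were higher, among them Car8 (6.37) and Skor2 (8.32), and all 8 cortex and hippocampus genes were lower, among them Tbr1 (-6.76). The 10 oligodendrocyte genes had 0 calls by edgeR.

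The delta subunit gene Gabrd, whose product assembles with alpha6, had a log2 fold change of 1.07 and did not pass (edgeR adjusted p = 0.0579). Among the 9 genes of the cerebellin family, its receptors and its presynaptic partners, 4 were higher and 3 lower. Cbln1 and Cbln3 were among the higher genes, and Grid1 was lower (-1.29, edgeR adjusted p = 0.000444). Of the 10 granule cell progenitor genes tested, 3 were higher and 6 lower, with Gli1 (2.71) and Cntn2 (1.43) higher and the doublecortin gene Dcx (-2.22) and the cyclin gene Ccnd2 (-2.40) lower.

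The library labelled cerebellum Tol 2 was set beside the other 5 cerebella gene by gene. Tol 2 is a single library, set apart with its values known, so the following is a description without a test. In Tol 2, 9 of the 10 genes were below the lowest of the other cerebella, all 9 by over 2-fold, while 32.7% of the 16662 genes tested in cerebellum were below that range and 3.58% by over 2-fold. The remaining gene, Barhl1, was above the range, as were 27.8% of all genes, but not by over 2-fold, as were 3.37%. The median log2 ratio of (CPM + 1) in Tol 2 to the median of the other 5 was -4.38 over the 10 genes and -0.01 over all genes tested.

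Gabra6 was at 12.8 CPM in Tol 2, against 767 CPM in Tol 1 and 332 to 798 CPM in the WT cerebella, which is 1.88% of the median of the other 5. The gap lies far outside the range of the others, whose lowest value was 25.9 times that of Tol 2. Cbln3 stood at 30.9 CPM in Tol 2 against 1994 CPM in Tol 1 (2.16% of the median of the other 5), and Cbln1 at 24.7 CPM against 920.2 CPM (3.81%). The receptor subunit and the cerebellin genes were thus the members with 3 of the 5 lowest shares.

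Among the transcription factors, Neurod1 was at 7.78 CPM in Tol 2 and 427 CPM in Tol 1 (2.12% of the median of the other 5). Pax6 was at 4.72 and 113 CPM (4.90%), Zic1 at 58.9 and 1009.97 CPM (6.34%), and Zic2 at 16.1 and 212 CPM (8.50%). Etv1 kept the largest share of the 9 with 61.7 CPM, against 699 CPM in Tol 1 (11.0%). Barhl1 went the other way, with 24.9 CPM in Tol 2 beside 14.3 CPM in Tol 1 and a range of 10.8 to 21.5 CPM over the WT cerebella (168%). It exceeded the highest of the others, WT 1, by a factor of 1.16 only. Fat2 was at 22.2 CPM in Tol 2 and 1231 CPM in Tol 1 (2.52%). The counts behind these values in Tol 2 were 117 to 1530 reads, well above the limit of detection. Set beside the 8 cerebra, Tol 2 was above the highest cerebrum for 6 of the genes, below the lowest for 3 (Neurod1, Pax6 and Etv1) and within the range for Cbln1.

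**Figure D3:**
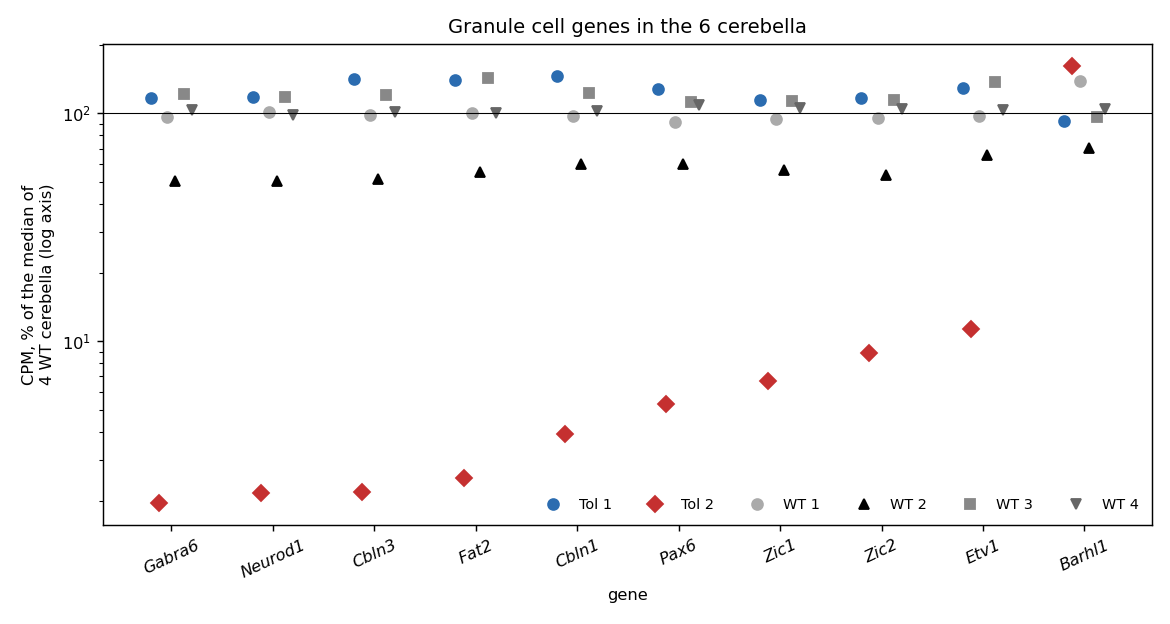
CPM of the 10 genes in each of the 6 cerebella as a percentage of the median of the 4 WT cerebella, on a log axis, with 1 symbol per library. Tol 2 (red diamonds) is the lowest library for 9 genes and the highest for Barhl1, and WT 2 (black triangles) is the next lowest for those 9 and the lowest for Barhl1.

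Other granule cell genes took the same course in Tol 2. Of the 24, 23 were below the range of the other cerebella, 20 of them by over 2-fold, with a median of 17.1% of the others. The lowest shares were those of the cytokine precursor gene Il16 (2.96%), the basic helix-loop-helix gene Neurod2 (3.16%), Slc17a7 (4.25%) and the delta subunit gene Gabrd (5.40%). Vsnl1 was the single gene of the list above the range, with 120% of the median of the others (named after its value was seen). In the cerebellin family, Cbln2 (77.8 CPM against 0.0412 to 21.6 CPM) and Cbln4 (24.8 CPM against 0.206 to 13.9 CPM) were above the range while Cbln1 and Cbln3 were below it. The progenitor list was mixed, with Sox11 (438%) and Dcx (332%) above and Gli1 (43.7%) and Cntn2 (54.7%) below the range.

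Markers of several other cells were also outside the range in this library, some below and some above it. The counts below stand beside 32.7% of all genes tested in cerebellum below the range and 27.8% above it. Of 10 Purkinje cell genes, which mark the other principal neuron of the cerebellar cortex, 8 were below the range in Tol 2, with Pcp2 at 4.07%, Ppp1r17 at 4.92% and Calb1 at 8.64% of the others and Car8 at 101 CPM against 815 to 2209 CPM. The summed level of the list was 1223 CPM in Tol 2 and 4104 to 10477 CPM in the other cerebella. Of the 10 thalamus and midbrain genes tested, 7 were above the range, and the summed level of the list was 964 CPM in Tol 2 against 130 to 448 CPM. Tcf7l2 was at 274 CPM in Tol 2, 136 CPM in WT 1 and 4.32 to 6.36 CPM in the other 4, and Slc17a6 at 516 CPM against 2.84 to 212 CPM. Tfap2d (26.9 CPM) and Gata3 (17.8 CPM) also had their highest level in Tol 2, with WT 1 next (14.01 and 3.40 CPM). Genes above the range were not confined to that list: of the 9 striatum genes tested, 5 were above it, each by over 2-fold, and 4 below it. The summed level of the 5 genes of neurons of all kinds was 5311 CPM in Tol 2, within the 4983 to 5746 CPM of the others, and that of the 8 cortex and hippocampus genes was 71.2 CPM against 50.4 to 62.2 CPM, with 586 to 745 CPM in the cerebra. The Purkinje cell gene above the range was Foxp2 (95.3 CPM against 13.1 to 49.8 CPM), named after its value was seen, and Pcp4 lay within it. Of the remaining cerebellar lists, 3 of 3 unipolar brush cell genes were below the range, with Eomes at 0.766 CPM against at most 60.7 CPM. Of 7 inhibitory interneuron genes 3 were below, 2 above and 2 within the range, and the summed level of that list was 1253 CPM against 942 to 1135 CPM. Of 8 Bergmann glia and astrocyte genes 5 were below, 1 above and 2 within it. Of 10 oligodendrocyte genes 9 lay within the range and 1 above it. All 10 were at 123% to 285% of the median of the others, and WT 2 had the highest summed level of that list (18344 CPM). Of 5 microglia genes 5 were above the range. The part of these other cells in the levels of the member genes was not tested.

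**Figure D4:**
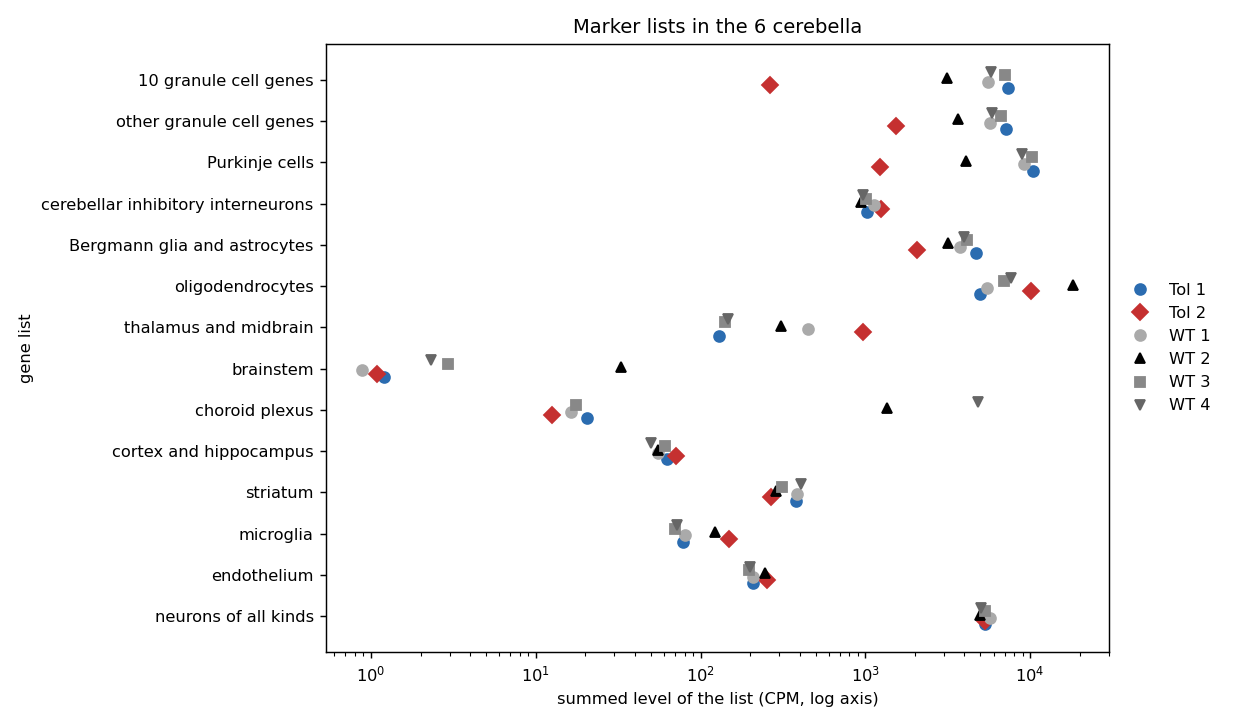
Summed CPM of 14 gene lists in the 6 cerebella on a log axis, with 1 symbol per library. Tol 2 (red diamonds) is lowest for both granule cell lists and the Purkinje cell list and highest for the thalamus and midbrain list, and WT 2 (black triangles) is highest for the oligodendrocyte and brainstem lists.

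WT 2 was the lowest WT cerebellum for all 10 genes, against 36.7% of all genes tested, at 48.8% (Gabra6) to 67.6% (Barhl1) of the median of the other 3. The 10 genes were closer to each other here than in Tol 2, with a median of 54.3%. The oligodendrocyte list was at 18344 CPM in WT 2 and at 5489 to 7634 CPM in the other WT cerebella, the brainstem list at 33.0 CPM against 0.881 to 2.93 CPM, the choroid plexus list at 1360 CPM against 16.3 CPM in WT 1, 17.4 CPM in WT 3 and 4852 CPM in WT 4, and the Purkinje cell list at 4104 CPM against 8989 to 10337 CPM. The part of these other cells in the lower level of the member genes was not tested. The 10 genes were called higher in WT cerebellum than in WT cerebrum also without cerebellum WT 2 and cerebrum WT 4 together, with log2 fold changes of 2.26 to 13.00.

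The comparison of Tol with WT cerebellum, which asks whether the transgene changed these genes, gave 0 calls among the 10, where edgeR called 0% of the 16662 genes. No member had an unadjusted p under 0.05 and DESeq2 called 0 members, while 528 rows, the transgene included, had an unadjusted p under 0.05 by edgeR. The log2 fold changes were -0.64 (Gabra6, SE 1.26) to -0.35 (Cbln1, SE 1.13) for 9 genes and 0.34 (SE 0.33) for Barhl1, with adjusted p of 0.957 to 0.975. The groups overlapped for each of the 10, whereas 10.5% of all genes did not overlap. These values rest on 2 Tol libraries that differ widely: Tol 1 was above the highest WT cerebellum for Cbln1, Cbln3, Zic1, Zic2, Neurod1 and Pax6 and within the WT range for the other 4, and Tol 2 was outside it for all 10. Without Tol 2, the sign turned for all 10 genes: Tol 1 alone against 4 WT libraries gave 0.31 (Zic1) to 0.60 (Cbln1 and Cbln3) for 9 genes and -0.14 for Barhl1 (edgeR adjusted p from 0.979 to 0.980). Without Tol 1, Tol 2 alone gave -5.53 (Gabra6) to -3.11 (Etv1) for 9 genes, each with an adjusted p of 0.0875, and 0.70 for Barhl1 (adjusted p = 0.274). In such fits the lone Tol library is assumed to vary like the WT libraries.

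In cerebrum, Gabra6, Cbln3 and Fat2 stood far higher in 2 libraries, Tol 2 and WT 4, than in the other 6. Cbln3 was still counted in each of the other 6, with 27 to 77 reads. Gabra6 was at 0.0970, 5.08, 0.740 and 1.17 CPM in Tol cerebra 1 to 4 and, as above, at 0 to 0.240 CPM in WT 1 to 3 and 5.27 CPM in WT 4. Cbln3 (14.2 CPM in Tol 2 and 12.5 CPM in WT 4, against 1.57 to 3.80 CPM in the other 6) and Fat2 (8.72 and 7.67 CPM, against 0.129 to 2.02 CPM) were highest in the same libraries. The Purkinje cell genes Pcp2 (4.87 CPM in Tol 2 and 2.70 CPM in WT 4, against 0.0643 to 1.13 CPM) and Ppp1r17 (5.08 and 1.98 CPM, against 0 to 1.23 CPM) were highest there too. Both were picked from the list of 10 Purkinje cell genes, and the rest of that list is not described for single cerebra. Its summed level lay between 1427 and 1869 CPM among Tol cerebra. Among WT cerebra it lay between 1161 and 2075 CPM. Relative to WT cerebellum, the mean Gabra6 level was 0.290% in Tol and 0.226% in WT cerebrum. The part of RNA from cerebellum in these libraries was not tested.

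Neurod1 (8.05 to 20.4 CPM), Pax6 (6.36 to 10.2 CPM), Zic1 (4.57 to 13.4 CPM), Zic2 (5.34 to 8.57 CPM) and Etv1 (75.3 to 183 CPM) were measured in all 8 cerebra, with smaller gaps between libraries. Zic1 and Zic2 were also highest in Tol 2 and WT 4, and Neurod1 and Pax6 were highest in WT 4. Etv1 reached 24.4% of its WT cerebellum level in WT cerebrum, and Pax6 reached 9.81%. Cbln1 ranged from 2.89 CPM in WT 2 to 27.8 CPM in WT 1 among the WT cerebra, and was at 6.93 to 9.67 CPM in Tol. Barhl1 had at most 5 counts in any cerebrum and did not pass the filter on low counts.

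**Figure D5:**
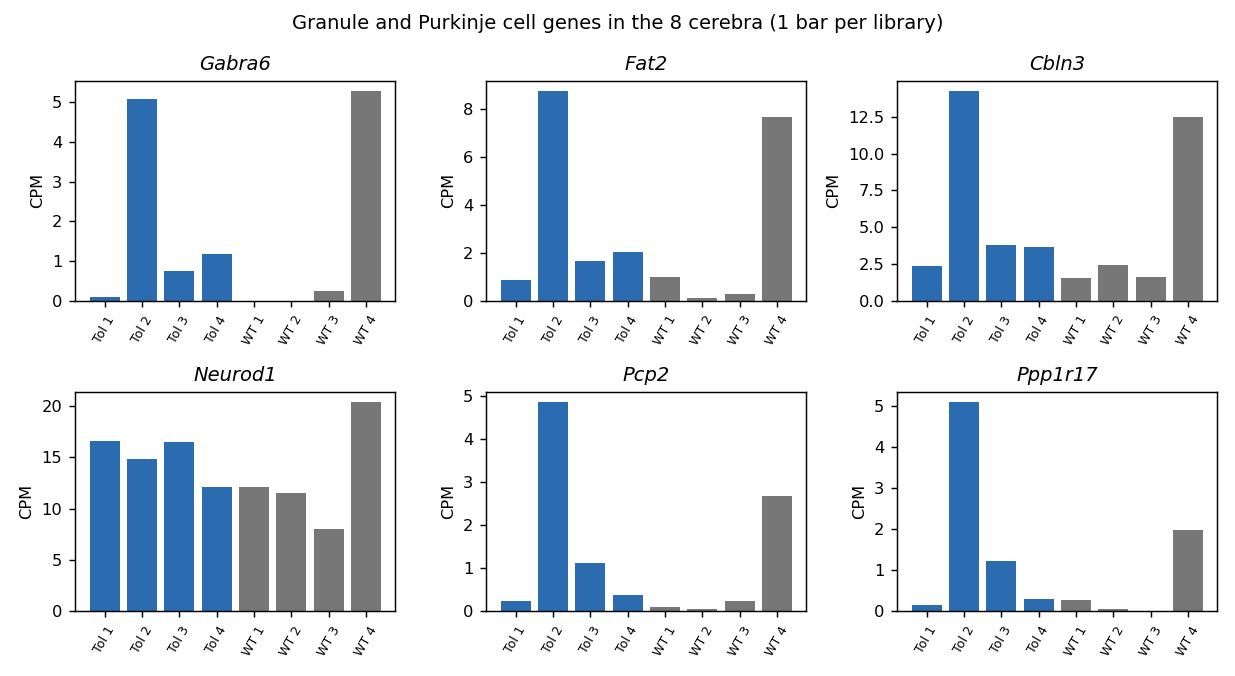
CPM of Gabra6, Fat2, Cbln3, Neurod1 and the Purkinje cell genes Pcp2 and Ppp1r17 in the 8 cerebra, with 1 bar per library (Tol blue, WT grey). All except Neurod1 have their 2 tallest bars in Tol 2 and WT 4, and Neurod1 is between 8.05 and 20.4 CPM throughout.

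Between Tol and WT cerebrum, 0 of the 9 members tested were called, where edgeR called 0% of 15596 genes. No member had an unadjusted p under 0.05 by edgeR or was called by DESeq2, and over all rows, the transgene included, 1507 had an unadjusted p under 0.05. The fold changes ran from -0.57 (Cbln1, SE 0.58) to 0.55 (Fat2, SE 1.07) on the log2 scale, with adjusted p of 0.759 to 0.954. For 0 of the 9 did the groups separate, against 6.46% of all genes. Gabra6, Cbln3 and Fat2 depended on the 2 libraries named above: without WT 4 their log2 fold changes were 4.37, 1.68 and 2.77 (edgeR adjusted p = 0.524, 0.557 and 0.519), and without Tol 2 they were -1.11, -0.47 and -0.59. With both libraries left out, Gabra6 no longer passed the filter, and Cbln3 and Fat2 were at 0.81 and 1.63 (edgeR adjusted p = 0.608 and 0.617).

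In thymus, Fat2 had the highest CPM of the members, but per kb of the principal transcript its range overlapped that of Etv1 in both genotypes. Fat2 was at 12.1, 7.78, 10.2 and 9.47 CPM in Tol thymi 1 to 4 and at 12.1, 14.3, 9.67 and 9.92 CPM in WT thymi 1 to 4. The genotypes overlapped, and all 8 thymi were above 7 of the 8 cerebra, while cerebrum Tol 2, with 8.72 CPM, was above thymus Tol 2. Etv1 ranged from 3.96 to 4.71 CPM in Tol thymi and from 4.24 to 5.13 CPM in their WT counterparts, and Cbln3 from 0.573 to 0.799 CPM over all 8. Pax6 was low but counted in every thymus, with 5 to 33 reads. Gabra6, Zic2, Neurod1 and Barhl1 had 0 to 4 reads per thymus, at or near the limit of detection. Of the 4 members tested between Tol and WT thymus, 0 were called, where edgeR called 0.0985% of 16248 genes and 11.6% of all genes had groups that did not overlap. None of the 4 had an unadjusted p under 0.05. DESeq2 gave an adjusted p for Etv1 and Fat2 only, and called neither. Their log2 fold changes were -0.20 (Fat2, SE 0.15) to 0.22 (Pax6, SE 0.39), with edgeR adjusted p of 0.431 to 0.965.

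The genes outside the lists whose pattern was most like that of the 10 were found by the Pearson correlation of log2(CPM + 1) with the mean over the 10 across the 22 libraries, a description in which the organ accounts for most of the spread. Cerebellum Tol 2 was included, and the correlations were not computed without it. The genes found were the cadherin Fat1 (r = 0.990), Washc2 (0.989), the tetraspanin Tspan9 (0.989), Grid2ip (0.988) and Plekhd1 (0.988). Unlike Gabra6, several of them were well expressed outside the cerebellum: Fat1 was at 413 CPM in WT cerebellum, 64.4 CPM in WT cerebrum and 38.6 CPM in WT thymus. In Tol 2, Fat1 was at 119 CPM and Grid2ip at 7.42 CPM. Of the members, Zic1 correlated best with the mean it is part of (0.994), and Barhl1 (0.889), Etv1 (0.871) and, last of all, Fat2 the least.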

How the data were processed

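RNA from frozen thymus, cerebrum and cerebellum was sequenced from stranded, poly(A)-selected libraries. Per the labels and the submitters' processing notes, the authors quantified the reads with Salmon 0.14.1 (GRCm38, with a row for the transgene). The deposited values are expected counts, that is, estimated counts per gene, here whole numbers and not normalized. How transcripts were summed to genes is not given in the sources used here. Tol columns carry another abbreviation of the strain in the tables and were matched by their number; 0 columns were left unused. The paper gives 4 mice per genotype, and other Tol cerebella than these 2 are not analysed here.

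Groups were compared in R 4.3.3 with edgeR 4.0.16 (TMM, filterByExpr, quasi-likelihood F test, Benjamini-Hochberg adjustment over all genes tested, called under 0.05). The test was checked on simulated counts in which each gene had the same spread in all libraries. That setting does not represent a library as unlike its group as cerebellum Tol 2. Tol 2 was described by the log2 ratio of CPM + 1, without a test. Symbols came from GENCODE vM21, which held 34530 of 34585 entries. Named were all members, up to 4 genes per other list by lowest p or, for Tol 2, largest log2 ratio, and the 5 genes of most similar pattern; exceptions are stated. The members and all lists were chosen with earlier results of these data known.

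No pair of libraries in a group agreed within sampling noise (chi-square over its degrees of freedom, 4.98 to 208). The limit of detection covers counting error only. Alternatives were DESeq2 1.42.0, its size factors within edgeR, testing without a low-count filter or with a minimum of 10 counts in each library, all 22 libraries in 1 fit, the replicate number as a block, other CPM scalings, a pseudocount of 0.1, and leaving out libraries. Leaving out 2 libraries together was added after seeing the data. Results for some listed genes are not reported here.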

Additional observations from a re-analysis of the deposited data

Results flagged for a closer look

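Groups of 4 libraries were searched for a library set far apart from the other 3, by the ratio of its gap to the range, for the members with at least 10 counts in 1 library and for the summed level of the marker lists. Of 94 such groups 16 had one. A rate of 1 in 20 would give about 4.7, but that rate holds for independent groups of normally distributed values. The groups here share libraries, so whether 16 exceeds chance cannot be decided from this count.

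Of the members, Cbln3 (14.2 CPM, others 2.38 to 3.80) and Fat2 (8.72 CPM, others 0.873 to 2.02) stood apart in cerebrum Tol 2. In cerebrum WT 4, Gabra6 (5.27 CPM, others 0 to 0.240), Cbln3 (12.5 CPM, others 1.57 to 2.44) and Fat2 (7.67 CPM, others 0.129 to 0.976) did so. No member was flagged in the WT cerebella, where WT 2 was lowest for all 10 without a gap of that size.

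Among the marker lists, cerebellum WT 2 was highest for oligodendrocyte genes (18344 CPM, others 5489 to 7634) and brainstem genes (33.0 CPM, others 0.881 to 2.93). Cerebrum WT 3 was highest for striatum genes (4006 CPM, others 262 to 310), brainstem genes (13.0 CPM, others at most 2.77) and thymocyte genes (45.8 CPM, others 5.79 to 10.5). Cerebrum Tol 4 was highest for the same lists, striatum (2265 CPM, others 350 to 487), brainstem (6.46 CPM, others 2.76 to 2.86) and thymocytes (26.9 CPM, others 6.56 to 8.25), and lowest for the cerebellin family and its partners (1598 CPM, others 1736 to 1749). Cerebrum Tol 2 was highest for genes of neurons of all kinds (9514 CPM, others 8089 to 8182), and cerebrum Tol 3 for olfactory bulb genes (55.3 CPM, others 51.5 to 52.0).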

How the results depend on the processing

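The number of members called was 0 in each of the 3 comparisons of Tol with WT under every alternative. In WT cerebellum against WT cerebrum all members tested were called under every alternative, 10 in each except where at least 10 counts were required in every library, which left 7. The mean log2(CPM + 1) of the members moved by more than the spread between replicates when CPM were scaled by library totals, to 0.86 in Tol thymus and 0.91 in WT thymus. Of the 5 genes of most similar pattern, 1 was shared with the Spearman correlation and 0 with the Pearson correlation over the 14 brain libraries.

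Leaving out 1 library turned the direction of several members, none of them called. In cerebellum, Tol against WT, the lowest and highest log2 fold changes over these fits were -5.53 and 0.33 for Gabra6, -4.57 and 0.60 for Cbln1, -5.37 and 0.60 for Cbln3, -3.75 and 0.31 for Zic1, -3.33 and 0.35 for Zic2, -5.38 and 0.36 for Neurod1, -4.09 and 0.45 for Pax6, -3.11 and 0.35 for Etv1, -5.26 and 0.49 for Fat2, and -0.14 and 0.70 for Barhl1, the ends set by Tol 1 and Tol 2. In cerebrum they were -1.11 and 4.37 for Gabra6, -0.89 and 0.17 for Cbln1, -0.47 and 1.68 for Cbln3, -0.050 and 0.19 for Zic2, -0.059 and 0.18 for Pax6 (0.21 without both Tol 2 and WT 4), -0.27 and 0.12 for Etv1, and -0.59 and 2.77 for Fat2. In thymus they were -0.15 and 0.038 for Cbln3.

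Libraries with the same replicate number did not deviate together in every pair (correlations of -0.406 to 0.681 over the comparisons), so the numbers were not taken as pairs. With the replicate number as a block, 0 members were called between Tol and WT and 10 of 10 between the WT brain regions.

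Counts of calls over all rows, the transgene included, depended on the tool. DESeq2 called 5 rows higher and 6 lower in cerebellum where edgeR called 1, 85 and 100 in cerebrum where edgeR called 1, and 666 and 602 in thymus where edgeR called 10 and 7. In thymus, edgeR called 69 and 62 without a low-count filter, 44 and 41 with at least 10 counts, 22 and 8 in the fit of all 22 libraries, 3 and 3 with the block, and 1590 and 1389 without Tol 1. In cerebrum the fit of all 22 libraries called 3 and 23. The cause was not tested. With 2 Tol cerebella of such different levels, the log2 fold changes of the members carried standard errors of 0.33 to 1.26 in cerebellum, which limits the change that could be detected.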
